A study of Mus musculus with 21 samples.

Results

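The integrated stress response was examined through 10 genes measured in left ventricular tissue. They included the transcription factors Atf4, Atf5 and Ddit3, the feedback gene Trib3 and the glutathione-degrading gene Chac1. The others were the enzymes Asns, Phgdh and Mthfd2, and the secreted stress hormones Gdf15 and Fgf21. The genes were chosen by symbol, and their symbols matched 11 of the 55450 rows in the table of counts, since Ddit3 has a second row (a short reading frame that overlaps the main gene) with no count in any of the 21 mice. The main row of each symbol is described here. In R403Q hearts on control diet, transcripts of the biosynthetic enzymes had higher values than in wild-type hearts (Asns 1.42-fold, Mthfd2 1.78-fold, Phgdh 1.97-fold), whereas Atf4, Atf5 and Ddit3 had log2 fold changes between -0.02 and 0.14. None of the 9 genes with enough counts to test passed an adjusted p-value of 0.05 in the edgeR fit chosen as the test of each comparison, and in this one 0.576% of all genes did. Other edgeR fits of this comparison called Asns, together with 1.44% of all genes in the fit of all 4 groups, 0.466% without R403Q-CD replicate 1 and 3.71% without replicate 3. DESeq2 called Asns and Phgdh, and 2.57% of the 31609 genes to which it gave a p-value, low counts included. The Mthfd2 difference rested on R403Q-CD replicates 2 and 5, without which its log2 fold change fell from 0.83 to 0.25. Fgf21 was barely detected in every group.

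In the integrated stress response, kinases that sense amino acid shortage, unfolded protein in the endoplasmic reticulum, viral RNA or mitochondrial and haem stress phosphorylate the translation factor eIF2. Phosphorylated eIF2 slows protein synthesis in general but favours translation of the Atf4 messenger, so that ATF4 protein can rise without any change in Atf4 transcript. ATF4 then switches on genes of amino acid synthesis, transport and one-carbon metabolism, as well as Ddit3, Trib3 and Chac1, and in muscle with mitochondrial disease the hormones FGF21 and GDF15 are well known products of this programme.

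The mice were male, of strain 129S6/SvEv, and carried either wild-type alleles (WT) or the heterozygous myosin heavy chain mutation labelled Myh6+/R404Q, which the study calls R403Q and which causes hypertrophic cardiomyopathy. They were fed control diet (CD) or the same diet with empagliflozin (EMPA), an inhibitor of the sodium-glucose cotransporter 2, at 0.15 mg per g of diet. There were 5 WT-CD and 5 WT-EMPA mice, 7 R403Q-CD mice and 4 R403Q-EMPA mice. The mutation is present in all cells of the animal and the tissue was taken whole, so that fewer cells of a type and less RNA per cell cannot be told apart. The labels give 16 weeks of treatment for these samples, whereas the design text places transcriptomics in 12-week-old mice and the methods place sequencing after 2 weeks of diet, so the exposure behind the EMPA groups is uncertain. CD mice came from 4 cages and EMPA mice from 3 cages, with none shared between the diets, so that diet and cage cannot be told apart.

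Libraries held between 23491535 and 43539684 counts. Levels are given as CPM, that is counts relative to 1000000 counts of the library, after scaling of library sizes by the trimmed mean of M-values (TMM), and 3 counts, the limit that a count of 0 allows in a single library, correspond to between 0.0689 and 0.128 CPM; this limit covers counting error only. Cardiomyocyte markers were abundant in every library, with between 31190 and 50840 summed CPM over 7 genes. R403Q-CD replicate 2 stood apart, with 10990 CPM of the hypertrophy marker Nppa and 1.95% of its counts from Myh6, and R403Q-CD replicate 5 came next with 3824 CPM of Nppa, against between 882 and 1437 CPM in the other R403Q-CD mice.

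ATF4 binds a composite C/EBP-ATF response element, and the windows below are shown because they hold its core, TGATGNAA, within the RefSeq promoter windows of these genes (250 bases before to 50 after the transcript start, GRCm38.p6, both strands searched). The core was present for 4 of the 10 genes, against 4.51% of 27025 genes with a window and 3.97% of 32851 windows. The matched bases are in capitals, and each line reads 5′ to 3′ along the strand on which the core lies. Distances are from the RefSeq start, which need not match the gene positions given below, taken from a GENCODE annotation. By those positions the Asns core lies inside the gene and the Trib3 core lies before its start.
Asns, chr6:7693214-7693243, minus strand, 23 to 16 bases before the start: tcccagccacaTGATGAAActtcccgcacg
Chac1, chr2:119351038-119351067, minus strand, 193 to 186 bases before the start: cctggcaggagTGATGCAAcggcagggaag
Fgf21, chr7:45615611-45615640, plus strand, 139 to 132 bases before the start: gcctggacggaTGATGCAAtgggggggtct
Trib3, chr2:152344028-152344057, plus strand, 14 to 21 bases after the start: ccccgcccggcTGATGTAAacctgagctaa
The core lay on the strand of the gene in Asns and on the opposite strand in Chac1, Fgf21 and Trib3. These letters were not in the windows of Atf4, Atf5, Ddit3, Gdf15, Mthfd2 and Phgdh. A match is a description of sequence, and the expression values of the 4 genes that hold one differed among themselves, from Asns with higher values in R403Q hearts to Fgf21 near the limit of detection.

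Levels of different genes were compared per kb of exon. In WT-CD hearts Atf4 was the most abundant, at 43.0 ± 2.25 CPM per kb (SD, n = 5), and 3.97% of the 27675 genes with a count in this group were above it. Atf5 followed at 33.5 ± 2.66 CPM per kb, Ddit3 at 9.91 ± 0.994, Chac1 at 5.32 ± 1.10, Asns at 3.00 ± 0.325 and Trib3 at 1.90 ± 0.336. Gdf15 (0.905 ± 0.247 CPM per kb) and Mthfd2 (0.771 ± 0.251 CPM per kb) were neighbours in this order whose WT-CD mice overlapped, and they changed places when the longest transcript was used as the length. Phgdh was low, at 0.198 ± 0.105 CPM per kb, with between 8 and 36 counts in each WT-CD library, and Fgf21 had no count in this group.

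**Figure D1:**
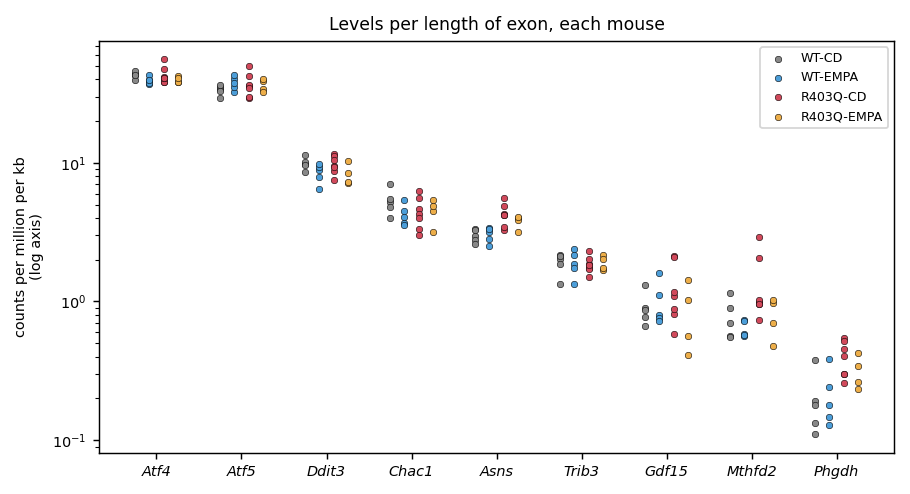
CPM per kb of exon (log axis) for each of the 21 mice, with genes ordered by their WT-CD mean and groups set apart by colour; mice with a value of 0 and Fgf21, which had no count in WT-CD, are not drawn. Atf4 and Atf5 lie highest in all groups, and the R403Q-CD mice spread furthest in Mthfd2.

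The first comparison asked how the mutation moves this programme on control diet. None of the 9 tested genes was called (edgeR quasi-likelihood test, adjusted p under 0.05), where 0.576% of 17025 genes were called, and 3 of 9 had an unadjusted p under 0.05, all with higher values in R403Q-CD, against 19.6% of all genes. The number of genes called over the whole table moved with single mice, from 14 without WT-CD replicate 1 to 630 (3.71%) without R403Q-CD replicate 3, and DESeq2 called 813 of 31609 (2.57%). The median log2 fold change of the 9 genes was 0.14, the value of Atf5, which was -0.02 without R403Q-CD replicates 2 and 5, and the median of all genes tested was 0.01.

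Atf4 (chromosome 15, 80255184 to 80257541), the central transcription factor of the response, had 102, 93.7, 102, 109 and 101 CPM in the WT-CD mice. In R403Q-CD it ran from 90.3 to 131 CPM with a median of 96.9, and in both EMPA groups from 87.1 to 102 CPM. The groups overlapped, and the highest values belonged to R403Q-CD replicates 2 and 5. The log2 fold change of R403Q-CD against WT-CD was 0.01 ± 0.08 (SE), with a 95% interval from -0.17 to 0.18 and an adjusted p of 0.973.

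Atf5 (chromosome 7, 44812256 to 44816658), a related factor that is translated in the same way and acts in the mitochondrial unfolded protein response, had 58.3, 67.4, 70.2, 65.7 and 72.0 CPM in WT-CD and ran from 58.1 to 98.6 CPM (median 71.1) in R403Q-CD. The same replicates, 2 and 5, were the highest. Between the groups the log2 fold change was 0.14 ± 0.11 with an adjusted p of 0.510, and it was -0.02 with both of these mice left out. Of its exons, 4.1% overlap Nup62 and Il4i1 on the opposite strand, and reads were counted by strand.

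Ddit3 (chromosome 10, 127290774 to 127296288), which encodes the pro-apoptotic factor CHOP, had 16.9, 17.4, 19.4, 14.7 and 16.4 CPM in WT-CD and between 12.8 and 19.8 CPM (median 16.2) in R403Q-CD. The ranges of both groups lay over each other, and the log2 fold change was -0.02 ± 0.11 (95% interval -0.26 to 0.21, adjusted p 0.938). Ddit3 shares 4.0% of its exons with Mars on the opposite strand.

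Trib3 (chromosome 2, 152337422 to 152344032), a pseudokinase that damps ATF4 activity, had 2.85, 4.33, 4.58, 4.52 and 3.94 CPM in WT-CD and between 3.19 and 4.91 CPM in R403Q-CD, with a median of 3.90. Its log2 fold change was -0.04 ± 0.13 with an adjusted p of 0.901. Chac1 (chromosome 2, 119351229 to 119354381), which breaks down glutathione, had 8.58, 7.91, 6.57, 11.5 and 8.998 CPM in WT-CD and between 4.96 and 10.2 CPM in R403Q-CD, with a median of 6.97. Here 3 of 7 R403Q-CD mice lay below every WT-CD mouse, and the log2 fold change was -0.25 ± 0.18 with an adjusted p of 0.443. Neither Trib3 nor Chac1 was separated between the genotypes.

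Asns (chromosome 6, 7675169 to 7693254), asparagine synthetase and a classical ATF4 target, had 8.17, 9.16, 7.64, 7.08 and 9.02 CPM in WT-CD. The R403Q-CD mice had 9.01, 15.1, 11.7, 9.38, 13.3, 11.4 and 11.5 CPM. All but 1 of the 7 R403Q-CD mice lay above the highest WT-CD mouse, and R403Q was above WT in each of the 4 CD cages, by between 0.842 and 6.75 CPM. The log2 fold change was 0.50 ± 0.12 (95% interval 0.25 to 0.76), with an unadjusted p of 0.000699 and an adjusted p of 0.0641 in edgeR. Asns lay close to the threshold: it was called in the fit of all 4 groups (adjusted p 0.0365, with 1.44% of all genes called) and by DESeq2 (adjusted p 0.00818), and without R403Q-CD replicate 1 (adjusted p 0.0431, with 0.466% of all genes called) or replicate 3 (adjusted p 0.0457). Over all alternatives its adjusted p ran from 0.00818 to 0.172. With replicates 2 and 5 both left out its log2 fold change was 0.36, and its adjusted p was 0.132.

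Phgdh (chromosome 3, 98313170 to 98339990), the first enzyme of serine synthesis from glycolysis, had 0.475, 0.934, 0.275, 0.333 and 0.449 CPM in WT-CD. The R403Q-CD mice ran from 0.638 to 1.34 CPM with a median of 1.005, and 4 of 7 were above every WT-CD mouse. WT-CD replicate 2, with 0.934 CPM, was the wild-type mouse that reached into the R403Q-CD range. For Phgdh the log2 fold change was 0.98 ± 0.30 (95% interval 0.36 to 1.61), the unadjusted p 0.00416 and the adjusted p 0.105, and R403Q was above WT in all 4 CD cages. Counts behind these values were between 20 and 65 in R403Q-CD, so the fold was known only within its wide interval. DESeq2 called Phgdh (adjusted p 0.0399), and over all alternatives the adjusted p ran from 0.0399 to 0.286. On the authors' variance-stabilized scale, which compresses low counts, its difference was 0.38.

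Mthfd2 (chromosome 6, 83305691 to 83325908), the mitochondrial methylenetetrahydrofolate dehydrogenase of the folate cycle, had 2.44, 3.995, 1.96, 1.93 and 3.12 CPM in WT-CD. The R403Q-CD mice had 2.56, 10.1, 3.44, 3.32, 7.19, 3.55 and 3.32 CPM. Replicates 2 and 5, which were also the highest in Nppa, were the only ones above every WT-CD mouse, although R403Q exceeded WT in each of the 4 CD cages. Mthfd2 had a log2 fold change of 0.83 ± 0.33 (95% interval 0.13 to 1.53), the unadjusted p 0.0230 and the adjusted p 0.190. Without replicate 2 the log2 fold change was 0.53, and without both it was 0.25 with an adjusted p of 0.658, so the size of this difference rested on these mice.

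Among the hormones, Gdf15 (chromosome 8, 70629393 to 70632456), a circulating cytokine that reduces appetite, had 1.42, 2.44, 1.24, 1.66 and 1.62 CPM in WT-CD and ran from 1.08 to 3.96 CPM (median 2.01) in R403Q-CD. The 2 R403Q-CD mice above all WT-CD mice were replicates 3 and 5, and replicate 2, the highest in Nppa, had the lowest Gdf15 of its group. Its log2 fold change was 0.45 ± 0.34 with a 95% interval from -0.28 to 1.18 and an adjusted p of 0.482. With each mouse left out, the log2 fold change ran from 0.27 to 0.63.

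Fgf21 (chromosome 7, 45613886 to 45615490), a metabolic hormone made mainly by liver and by stressed muscle, did not pass the filter on low counts. It had 0 counts in all 5 WT-CD libraries, and 0, 6, 0, 5, 0, 4 and 0 counts in the R403Q-CD libraries. The WT-EMPA libraries had 2, 0, 2, 1 and 2 counts and the R403Q-EMPA libraries 0, 5, 1 and 1. A count above 3 occurred only in R403Q mice, in 3 of 7 on CD and 1 of 4 on EMPA, and the remaining libraries were at or below the limit that a count of 0 allows. Exact two-sided permutation tests of mean CPM by library size gave p = 0.318 for R403Q-CD (n = 7) against WT-CD (n = 5), and p = 0.0476 for WT-EMPA against WT-CD, with an adjusted p of 0.190 over the 4 comparisons made. No difference in Fgf21 passed the threshold after adjustment.

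**Figure D2:**
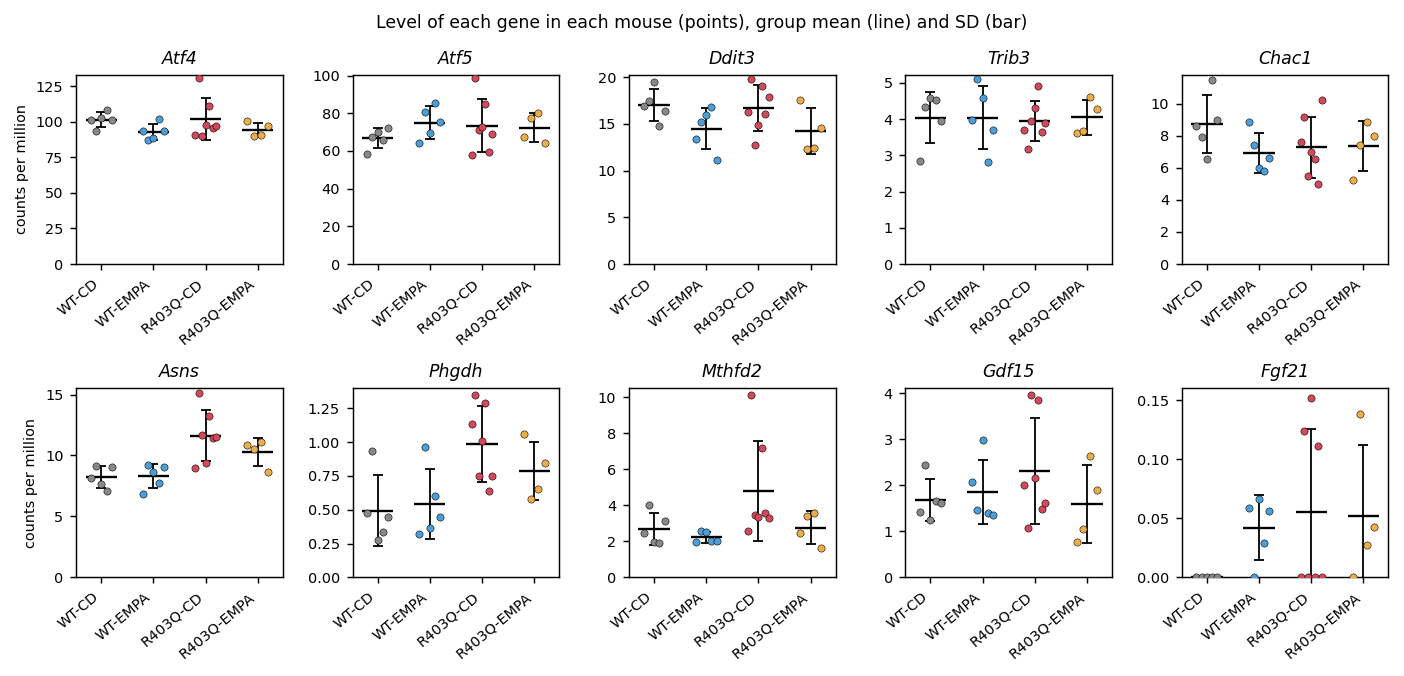
CPM of each gene in each mouse (points) with group means (lines) and SD (bars), for WT-CD (n = 5), WT-EMPA (n = 5), R403Q-CD (n = 7) and R403Q-EMPA (n = 4); every axis starts at 0. Asns shows the clearest shift between genotypes, with all but 1 R403Q-CD mouse above every WT-CD mouse, and Mthfd2 shows R403Q-CD mice at 10.1 and 7.19 CPM above the rest.

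Markers of other cells differed between the same groups, where 19.6% of all genes had an unadjusted p under 0.05 and 0.576% were called. All 6 macrophage markers had an unadjusted p under 0.05 in R403Q-CD against WT-CD, all with higher values, and 1 of them, Csf1r, was called (log2 fold change 0.46, adjusted p 0.0400 in edgeR). Their sum ran from 155 to 206 CPM in WT-CD and from 209 to 329 CPM in R403Q-CD. Of 5 fibroblast markers, 4 had an unadjusted p under 0.05, with higher values in R403Q-CD, and their sum ran from 973 to 1566 CPM in WT-CD and from 1340 to 2986 CPM in R403Q-CD. None of the markers in either list was at 0 in any group. Of 8 hypertrophy markers, 6 had an unadjusted p under 0.05, 4 with higher and 2 with lower values, and both tested skeletal muscle markers had higher values. Of 7 cardiomyocyte markers, 6 had log2 fold changes below 0 (median of the list -0.13), and 2, Actn2 and Ryr2, had an unadjusted p under 0.05. The part of these lists in the Asns, Phgdh and Mthfd2 differences was not tested.

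The second comparison asked what EMPA does in the mutant heart. None of the 9 genes was called in R403Q-EMPA against R403Q-CD, and of all 17025 genes 0% were called by edgeR (2123 had an unadjusted p under 0.05, and DESeq2 called 142 of 31609, or 0.449%). Of the 9 genes, 1 had an unadjusted p under 0.05, against 12.5% of all genes. This was Mthfd2, with 2.44, 3.38, 3.58 and 1.65 CPM in the R403Q-EMPA mice. These values lay within the range of WT-CD or just below it, and below R403Q-CD replicates 2 and 5. Its log2 fold change was -0.79 ± 0.36 (95% interval -1.55 to -0.03), its unadjusted p 0.0430 and its adjusted p 0.389. Without R403Q-CD replicate 2 it was -0.48, and without replicates 2 and 5 it was -0.21.

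Asns had 10.9, 10.5, 11.1 and 8.61 CPM in R403Q-EMPA, inside the R403Q-CD range apart from the lowest mouse, with a log2 fold change of -0.18 ± 0.13 and an adjusted p of 0.600. The Phgdh values were 1.06, 0.581, 0.655 and 0.848 CPM, with a log2 fold change of -0.35 ± 0.31. Gdf15 was the most variable of the tested genes in R403Q-EMPA hearts, at 0.765, 1.05, 2.65 and 1.91 CPM, and its log2 fold change was -0.52 with a 95% interval from -1.31 to 0.27. It was -0.30 without R403Q-EMPA replicate 1 and -0.90 without replicate 3. The Ddit3 values were 17.6, 12.3, 12.4 and 14.6 CPM, and 2 of the 4 mice lay below every R403Q-CD mouse (log2 fold change -0.23 ± 0.12, adjusted p 0.445). The log2 fold changes of the 9 genes ran from -0.79 to 0.04, and 7 of 9 were below 0, with R403Q-CD replicates 2 and 5 among the control mice. Atrial cardiomyocyte markers had lower values in the same comparison (3 of 3 with an unadjusted p under 0.05, against 12.5% of all genes), their sum running from 3.21 to 608 CPM in R403Q-CD and from 2.70 to 34.8 CPM in R403Q-EMPA. Of 8 hypertrophy markers, 4 had an unadjusted p under 0.05, with lower values of Nppa (log2 fold change -1.88), Nppb (-1.17) and Ankrd1 (-1.27) and higher values of Myh7 (0.41). Smooth muscle and pericyte markers had a median log2 fold change of -0.71, all 5 were below 0 and 2 of 5 (Acta2 and Tagln) had an unadjusted p under 0.05, their sum running from 974 to 1486 CPM in R403Q-CD and from 784 to 1170 CPM in R403Q-EMPA. Of 16 circadian clock genes, 13 had an unadjusted p under 0.05 here, against 12.5% of all genes, and 11 in WT-EMPA against WT-CD, which also separates the diets, against 11.0% of all genes. The part of these lists in the values of the stress response genes was not tested.

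**Figure D3:**
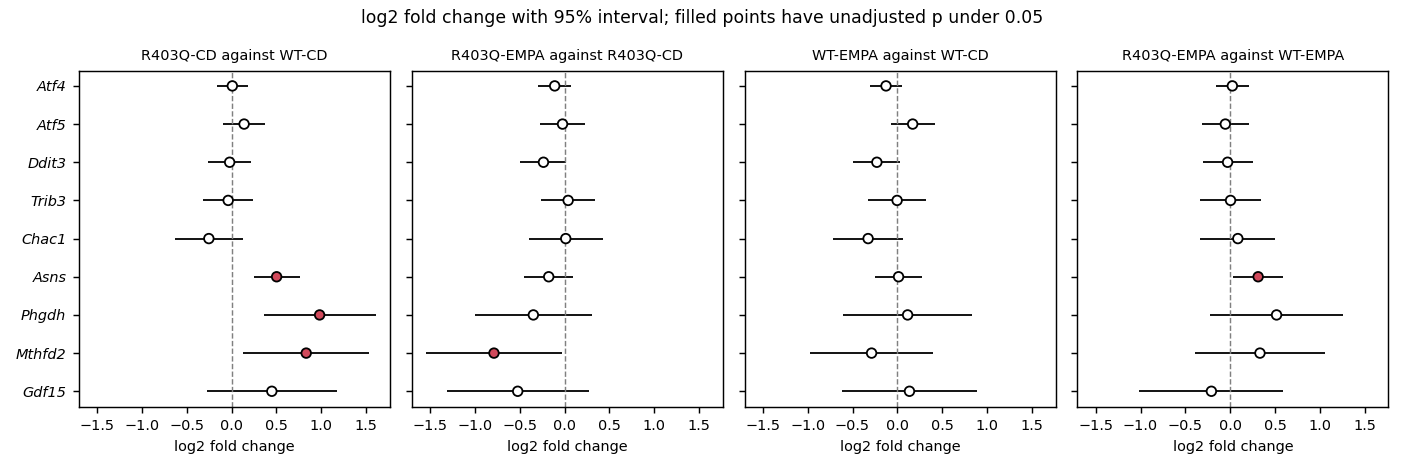
log2 fold change (points) and 95% interval (lines) of the 9 tested genes in the 4 comparisons between groups; filled points have an unadjusted p under 0.05. Asns, Phgdh and Mthfd2 lie to the right of 0 in R403Q-CD against WT-CD, at 0.50, 0.98 and 0.83, and most intervals in the other panels cross 0.

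In wild-type hearts none of the 9 genes was called in WT-EMPA against WT-CD, where 0.0289% of 17309 genes were called. The number of all genes called ran from 0 to 7 with each mouse left out, and DESeq2 called 96 of 32456. Of the 9 genes, 0 had an unadjusted p under 0.05, against 11.0% of all genes. Ddit3 had 13.4, 15.2, 15.9, 16.8 and 11.1 CPM in WT-EMPA, 2 of these below every WT-CD mouse, and a log2 fold change of -0.23 ± 0.13 (adjusted p 0.524). Chac1 had 8.86, 7.40, 6.01, 5.81 and 6.62 CPM, with a log2 fold change of -0.33 ± 0.19 and an adjusted p of 0.540. The Atf4 values were 93.7, 87.1, 88.5, 102 and 93.6 CPM, 4 of them below or level with the lowest WT-CD mouse, and its log2 fold change was -0.13 ± 0.08 (adjusted p 0.600). Atf5 had 64.2, 80.5, 69.7, 85.7 and 75.5 CPM, and its log2 fold change was 0.17 ± 0.12 (adjusted p 0.624). The enzymes showed log2 fold changes of 0.01 for Asns, 0.11 for Phgdh and -0.29 for Mthfd2, and Gdf15 one of 0.14, each smaller than or close to its standard error.

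The genotypes were also compared under EMPA. None of the 9 genes was called in R403Q-EMPA against WT-EMPA, where 0.0578% of 17309 genes were called. The number of all genes called ran from 1 to 64 with each mouse left out. It was 123 in the fit of the 2 groups only, and DESeq2 called 303 of 32456. Of the 9 genes, 1 had an unadjusted p under 0.05, against 14.7% of all genes. This was Asns, for which the WT-EMPA mice had 6.87, 9.21, 8.63, 7.73 and 9.06 CPM. Of the R403Q-EMPA mice, 3 of 4 were above all of these, and R403Q was above WT in both EMPA cages that held both genotypes. The log2 fold change was 0.31 ± 0.13 (95% interval 0.03 to 0.59), the unadjusted p 0.0299 and the adjusted p 0.280. For Phgdh the WT-EMPA mice had 0.322, 0.961, 0.365, 0.604 and 0.449 CPM, and the log2 fold change was 0.52 ± 0.36. For Mthfd2 the WT-EMPA mice had 1.96, 2.57, 2.52, 2.04 and 1.99 CPM, and the log2 fold change was 0.33 ± 0.35. With each mouse left out, the log2 fold change ran from 0.34 to 0.83 for Phgdh and from 0.17 to 0.50 for Mthfd2. The log2 fold change of Gdf15 was -0.21 ± 0.39. The WT-EMPA and WT-CD mice, like the 2 R403Q groups, were separate animals. The group means compared here therefore share no mice with those on control diet. The fits behind both comparisons estimated the spread partly from the same mice. Of the 6 macrophage markers, 5 had an unadjusted p under 0.05 in this comparison, all with higher values in R403Q-EMPA (median log2 fold change of the list 0.63), and their sum ran from 134 to 208 CPM in WT-EMPA and from 218 to 299 CPM in R403Q-EMPA. Of the 5 fibroblast markers, 2 had an unadjusted p under 0.05, both with higher values (median of the list 0.34), with sums from 922 to 1524 CPM and from 1552 to 1749 CPM. None of these markers was at 0 in either group, and their part in the Asns difference was not tested.

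Whether the effect of EMPA differed between genotypes was tested as an interaction. No gene was called for the interaction (0% of 17309), none of the 9 genes had an unadjusted p under 0.05, against 3.28% of all genes, and all had an adjusted p of 0.999. The estimates for Asns (-0.19 ± 0.18), Phgdh (-0.46 ± 0.47), Mthfd2 (-0.50 ± 0.46), Gdf15 (-0.66 ± 0.51) and Chac1 (0.34 ± 0.27) had wide errors on the log2 scale, and the 95% interval for Mthfd2 ran from -1.46 to 0.46.

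Mouse-to-mouse variation was examined after subtracting each group's mean from log2 CPM in the 21 mice, for the 36 pairs among the 9 genes. Asns and Mthfd2 varied together most closely, with Pearson r = 0.85 (permutation p = 3e-05, adjusted p = 0.00108) and Spearman rho = 0.85 (permutation p = 5e-05, adjusted p = 0.0018). Without the 2 mice farthest from the median of Asns r was 0.76, and it was 0.91 among the 12 CD mice and 0.70 among the 9 EMPA mice, which were also separate sets of cages. Atf5 and Mthfd2 followed, with r = 0.75 (permutation p = 0.00126, adjusted p = 0.0227) and rho = 0.66 (permutation p = 0.003, adjusted p = 0.054), and r = 0.55 without the 2 farthest mice. In both pairs the 2 farthest mice were chosen by the first gene alone. No r without R403Q-CD replicates 2 and 5 was computed. None of the other 34 pairs had an adjusted p of r under 0.05. Atf4 and Atf5 had r = 0.60 over all mice, but 0.79 in the CD mice and -0.10 in the EMPA mice (adjusted p = 0.229). The hormone Gdf15 did not follow the enzymes and was closest to Trib3 among the members, with r = 0.54 (adjusted p = 0.073).

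**Figure D4:**
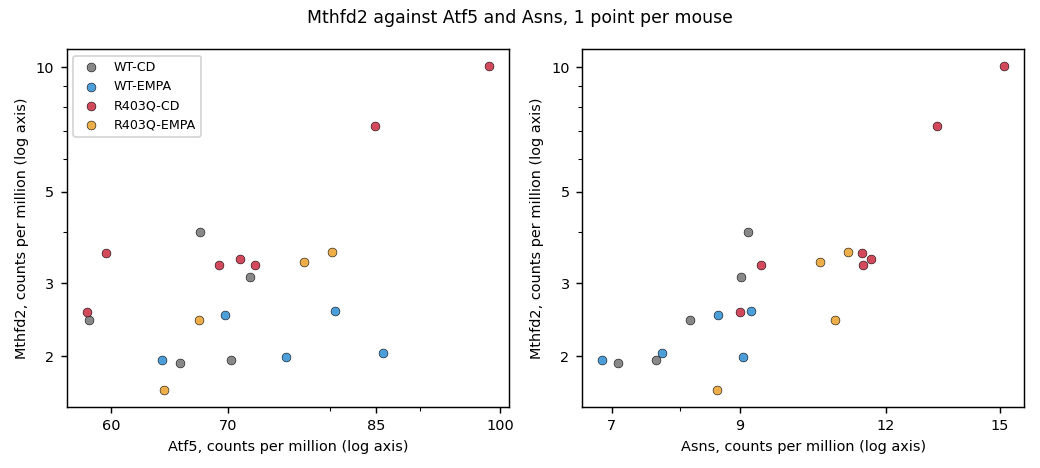
Mthfd2 against Atf5 (left) and against Asns (right) in CPM on log axes, with 1 point for each of the 21 mice coloured by group. R403Q-CD replicates 2 and 5 lie at the upper right of both panels, at 10.1 and 7.19 CPM of Mthfd2. The relation with Asns had r = 0.85 within groups over all mice and 0.70 among the 9 EMPA mice.

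Genes with the most similar pattern over all 21 mice, groups included, were sought among the tested genes by Spearman correlation of log2 CPM, as a description. Closest to Asns were Trim47 (rho 0.952), Soat1 (0.896) and Gulp1 (0.892). Mthfd2 lay closest to Cd9 (0.903), Sfxn1 (0.899), a mitochondrial serine transporter, and Fxyd6 (0.895). For Phgdh the closest was Aim2 (0.861), for Atf4 Slc35f5 (0.860), for Atf5 P4ha1 (0.764) and for Ddit3 Mthfd2l (0.805). The lowest of these best matches was that of Trib3, with Stim1 (0.670). The points share libraries and, in part, groups.

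The rest of the pathway was described by 94 further genes in 6 lists, of which 90 were tested. None was called in any of the 5 comparisons by the edgeR fit chosen as its test. In R403Q-CD against WT-CD, 23 had an unadjusted p under 0.05, 6 with higher and 17 with lower values in R403Q-CD, against 19.6% of all genes. DESeq2 called 6 of them in this comparison: Shmt2, Aldh1l2, Gpt2, Dnajb9, Herpud1 and Lonp1, each with a lower value in R403Q-CD, where it called 2.57% of all genes. With no filter on low counts edgeR called Gpt2 (0.335% of all genes called), and without R403Q-CD replicate 2 it also called Gpt2 (1.05% of all genes called). Without R403Q-CD replicate 3 it called 5, namely Shmt2, Aldh1l2, Gpt2, Herpud1 and Lonp1, all with lower values in R403Q-CD (3.71% of all genes called). In the R403Q-EMPA against R403Q-CD comparison 8 of 90 had an unadjusted p under 0.05, 3 of them with higher values, against 12.5% of all genes. In WT-EMPA against WT-CD, DESeq2 called 1, Eif4ebp1, and 0.296% of all genes.

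The ISR sensors and eIF2 machinery (17 genes) had a median log2 fold change of -0.02 in R403Q-CD against WT-CD, and 5 of 17 had an unadjusted p under 0.05, against 19.6% of all genes. Of these, Eif2ak2 (0.22) and Eif2s1 (0.09) had higher values, and Oma1 (-0.25), Dele1 (-0.32) and Eif2b5 (-0.10) had lower values. The kinases themselves were detected in every mouse: Eif2ak1, the haem-regulated kinase, at 44.3 ± 2.01 CPM in WT-CD, Eif2ak2, the kinase of viral RNA, at 25.1 ± 1.80 CPM, Eif2ak4, the sensor of amino acid shortage, at 15.3 ± 1.45 CPM, and Eif2ak3, the kinase of the endoplasmic reticulum, at 12.1 ± 0.888 CPM. Eif2ak2 had an adjusted p of 0.235.

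The other ATF4 target genes (28, of which 27 were tested) split in both directions, with 3 of 27 at an unadjusted p under 0.05 with higher values in R403Q-CD and 5 with lower values, against 19.6% of all genes in either direction, and a median log2 fold change of 0.06. Those with higher values were Atf3, a stress-induced transcription factor (0.85), Psat1, the second enzyme of serine synthesis (0.59), and Nupr1, a stress-induced chromatin protein (1.002). Gpt2, the mitochondrial alanine aminotransferase, had the smallest p of the list, with a log2 fold change of -0.51 and an adjusted p of 0.0562. The others with lower values were Aldh1l2 (-0.65), Shmt2 (-0.29), Stc2 (-0.31) and Cth (-0.84). These genes were named after their values were seen.

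Mitochondrial chaperones and proteases (12 genes) had a median log2 fold change of -0.19, with 5 of 12 at an unadjusted p under 0.05, all with lower values in R403Q-CD, against 3341 of 17025 genes (19.6%), 1438 of them lower. The list includes Lonp1, the main protease of the mitochondrial matrix (-0.21, adjusted p 0.0996 in edgeR). The sum of the 12 genes ran from 2575 to 2920 CPM in WT-CD and from 1808 to 2739 CPM in R403Q-CD, where the median was 2552. Of 7 cardiomyocyte markers, 6 also had log2 fold changes below 0, and their part in these values was not tested. Cytosolic tRNA synthetases (12 genes) had a median of -0.05, with 9 of 12 below 0 and 2 of 12 at an unadjusted p under 0.05, both lower. The 18 genes of the unfolded protein response of the endoplasmic reticulum had a median of 0.04. Of these, 1 with a higher and 2 with lower values had an unadjusted p under 0.05. Among the lower ones Herpud1, a gene of protein degradation in the endoplasmic reticulum, had a log2 fold change of -0.56 and an adjusted p of 0.0874. Over all genes tested the median was 0.01.

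Receptors of the hormones were sparse. Gfral, the receptor of GDF15, had no count in 3 of the 4 groups, and Klb, the coreceptor of FGF21, was at or below 0.112 CPM in every mouse. Fgfr1, which pairs with KLB, was present at 38.6 ± 6.38 CPM in WT-CD. Ret, the signalling partner of GFRAL, had 3.18 ± 0.900 CPM in R403Q-CD (n = 7) and 5.66 ± 1.14 CPM in R403Q-EMPA (n = 4). Its log2 fold change between them was 0.83 ± 0.19, with an adjusted p of 0.130 in edgeR and of 0.00965 in DESeq2, which called 0.449% of all genes.

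**Figure D5:**
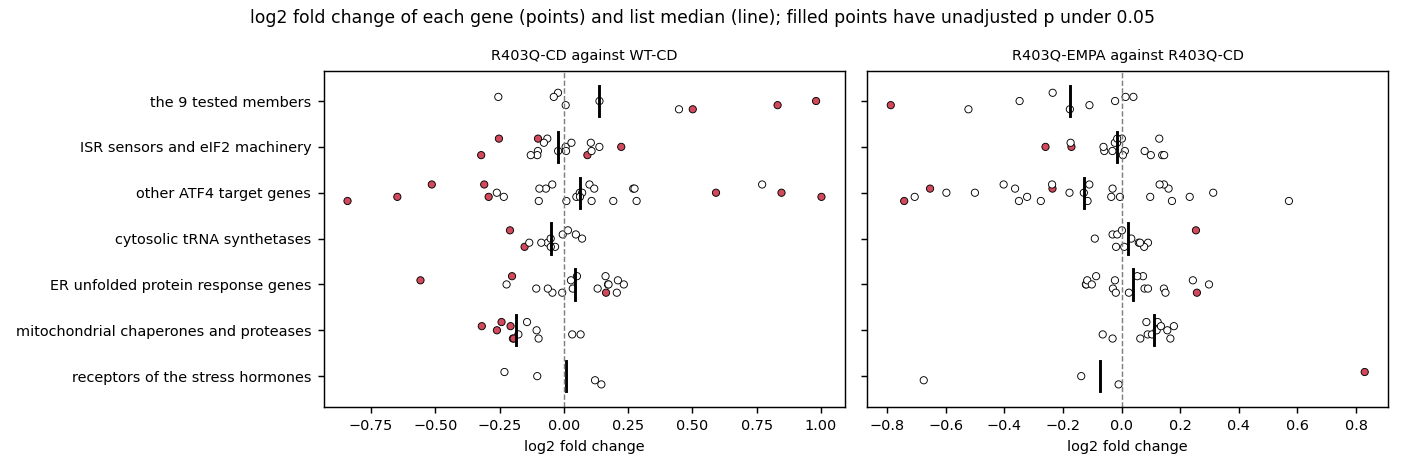
log2 fold change of each gene (points) and median of each list (lines) in R403Q-CD against WT-CD (left) and R403Q-EMPA against R403Q-CD (right); filled points have an unadjusted p under 0.05. In the left panel the mitochondrial chaperones and proteases lie mostly below 0 (median -0.19) while the ATF4 target genes spread to both sides (median 0.06).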

How the data were processed

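RNA sequencing of 21 left ventricles was analysed from the deposited counts, which the authors made with featureCounts (Subread 1.6.2, by strand, uniquely aligned proper pairs, Ensembl genes, mitochondrial genes left out) after alignment to mm10 with STAR 2.6.0c. The authors also deposited log2 values, the same counts after DESeq2's variance-stabilizing transformation. The members and lists were chosen with earlier results of these data known. Symbols came from a GENCODE annotation of GRCm38, and positions are on that build.

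Tests were run with edgeR 4.0.16 under R 4.3.3. After filterByExpr (minimum count 10) and TMM scaling came the quasi-likelihood F test with Benjamini-Hochberg adjustment and a threshold of 0.05. WT-CD, R403Q-CD and R403Q-EMPA were fitted together for the first 2 contrasts (17025 genes), and all 4 groups for the others (17309 genes). The SE is the log2 fold change divided by the root of F. For correlations the prior count of log2 CPM was 2, with 100000 shuffles within groups. The script was tested on simulated data. All 10 members are described. List genes are named where called, those called by DESeq2 included, and the other named ones were chosen after their values were seen, apart from the closest 3 genes to each member by Spearman correlation.

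Alternatives were DESeq2 1.42.0, other scaling factors, no filter, other sets of groups, cage as a factor, limma 3.58.1 on the deposited log2 values, and leaving out each mouse. Each sample is 1 mouse, and replicate numbers follow the order of the labels.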

Additional observations from a re-analysis of the deposited data

How the results depend on the processing

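Replicate numbers carry no pairing. With cage as a factor, edgeR called 0 members in either genotype comparison, and of all genes 19 of 16538 on CD and 6 of 16635 on EMPA. In R403Q-CD against WT-CD, the number of members called was 0, but 1 in the fit of all 4 groups and 2 by DESeq2, which called 250 and 813 of all genes against 98, and between 0 and 1 with each mouse left out in turn, with between 14 and 630 of all genes. Genes of the pathway lists called there were 0, but 1 with no filter on low counts and 6 by DESeq2, and between 0 and 5 with each mouse left out (5 without R403Q-CD replicate 3 and 1 without replicate 2, where 630 and 177 of all genes were called). DESeq2 called 1 list gene in R403Q-EMPA against R403Q-CD (Ret, with 0.449% of all genes called) and 1 in WT-EMPA against WT-CD (Eif4ebp1, with 0.296% called). No other setting called a member or a list gene. The cause of these differences was not tested.

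Of 611 alternative values followed here, 27 had the opposite sign, all for log2 fold changes far from the threshold. In R403Q-CD against WT-CD these were Atf4 (-0.0067 by limma, -0.11 without R403Q-CD replicates 2 and 5), Atf5 (-0.017 without them), Ddit3 (0.050 by library size alone, 0.029 with cage) and Trib3 (0.026 by library size alone). With each mouse left out, Atf4 ran from -0.063 to 0.035, Ddit3 from -0.069 to 0.032 and Trib3 from -0.14 to 0.0087. In WT-EMPA against WT-CD, Asns ran from -0.035 to 0.074, Phgdh from -0.20 to 0.49 and Gdf15 from -0.10 to 0.31. In R403Q-EMPA against WT-EMPA, Gdf15 was 0.088 with cage and ran from -0.60 to 0.022. The interaction of Mthfd2 was 0.075 without R403Q-CD replicates 2 and 5, an alternative chosen after seeing the data. Of 891 fold changes of members over all contrasts and alternatives, 86 had the opposite sign and 5 passed the threshold. The 86 include members and contrasts not listed above. The r of Atf5 and Mthfd2 was 0.59 in EMPA mice alone and no longer passed. Counts below about 10 per library limit Fgf21, and those below 40 limit Phgdh in wild-type mice.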

Other observations

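The enzymes that neighbour Phgdh and Mthfd2 in serine and folate metabolism did not share a direction in R403Q-CD against WT-CD, and the 5 in the lists were put together after their values were seen. Psat1, the second enzyme of serine synthesis, had 4.52 ± 0.316 CPM in WT-CD (n = 5) and 6.79 ± 2.33 CPM in R403Q-CD (n = 7), a log2 fold change of 0.59 ± 0.22 with an adjusted p of 0.156 in edgeR. Psph, the last enzyme of that pathway, had 10.1 ± 0.448 and 10.99 ± 0.827 CPM, a log2 fold change of 0.12 (adjusted p 0.432). Shmt2, the mitochondrial serine hydroxymethyltransferase, had 51.9 ± 3.12 and 42.4 ± 5.06 CPM, a log2 fold change of -0.29 (adjusted p 0.0872), and Aldh1l2, the mitochondrial formyltetrahydrofolate dehydrogenase, had 20.7 ± 3.28 and 13.2 ± 3.76 CPM, a log2 fold change of -0.65 (adjusted p 0.0845). For Mthfd1l, which releases formate from mitochondria, the log2 fold change was 0.28 (adjusted p 0.534), and in R403Q-EMPA against R403Q-CD it was -0.74 (adjusted p 0.304). None of the 5 passed the threshold in the edgeR fit chosen as the test, while DESeq2 called Shmt2 (adjusted p 0.0294) and Aldh1l2 (adjusted p 0.0165), and so did edgeR without R403Q-CD replicate 3 (adjusted p 0.0347 and 0.0490).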
